A study of Mus musculus with 4 samples.

Results

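Chromatin accessibility was described at 10 genes of antigen presentation in sorted hematopoietic stem cells (HSCs) of control and Cpt1a-KO mice. H2-K1, H2-D1, B2m, Nlrc5 and Tap1 belong to the MHC class I pathway, and H2-Aa, H2-Ab1, H2-Eb1, Cd74 and Ciita belong to the MHC class II pathway. The genes were chosen by name from 49550 genes of the RefSeq table. Every called peak within 5000 bp of a gene body was assigned to it, and overlapping peaks of the 4 libraries were merged into regions. The 10 genes held 61 regions that at least 2 libraries shared, 31 at class I and 30 at class II genes, out of 137553 such regions on the autosomes and X.

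The study asked how loss of Cpt1a, which moves long-chain fatty acids into mitochondria for oxidation, changes HSCs. ATAC-Seq, which cuts open chromatin with the Tn5 transposase, was run on 2 control and 2 KO libraries from bone marrow. The labels call the sorted cells ltHSC, the genotypes WT and Cpt1a-KO, and say that the cells were frozen after the sort. The paper instead describes the cells of this assay as HSPCs, a population that also holds progenitors, and which name fits the libraries could not be settled. In the study's methods, controls were Cpt1a fl/fl mice, which carry loxP sites around part of the gene, and KO mice came from a cross of these with Vav1-Cre mice. Vav1-Cre is active throughout the hematopoietic system and not in HSCs alone, so the other blood cells of these mice also lacked the gene. Both genotypes were on a C57BL/6 background, and the methods describe adult mice of both sexes in general. Whether each library came from its own animal or from a pool is not given in the labels, so the spread between libraries may be technical in part.

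The deposited lists held 240881 to 277531 peak summits per library on the autosomes and X, and the KO libraries had a peak in 107662 and 113972 of the regions against 117085 and 118842 for the controls. The lists carry no read counts, so the depth behind each value is unknown. Each summit has a fold, the ratio of its signal to the local background of the same library, and a −log10 p. Because −log10 p grows with depth, each region was ranked within its library by the −log10 p of its strongest summit, as a percentile among all 137553 regions, with 0 for a region without a peak. Cpt1a itself had 18 regions. Of these, 17 and 15 held a peak in the control libraries and 14 in each KO library, and its strongest region stood at percentiles 95.4 and 95.7 in controls and 95.1 and 94.8 in KO libraries. The positions of these regions were not compared with the deleted part, so the genotype labels were not checked from these lists. Of 8 HSC marker genes, 8 had a region in all 4 libraries, with a median percentile of the strongest region of 94.1 to 96.0 per library. The corresponding medians were 83.5 to 86.6 for 6 B cell genes, 85.5 to 89.4 for 6 dendritic cell genes, 86.6 to 88.6 for 5 macrophage genes and 83.9 to 88.1 for 5 T cell genes. A peak reports accessibility and not expression, so these medians do not count other cells.

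MHC class I molecules consist of a polymorphic heavy chain, here H2-K or H2-D, bound to beta-2-microglobulin, the product of B2m. The TAP transporter, of which TAP1 is a subunit, carries peptides made by the proteasome into the endoplasmic reticulum, where they are loaded. MHC class II molecules pair an alpha and a beta chain, and the invariant chain CD74 occupies the groove until the molecule reaches an endosome. Nearly all nucleated cells present class I, whereas class II is most abundant on B cells, dendritic cells and macrophages and is also found on some hematopoietic progenitors. The promoters of both classes share a module of X and Y boxes bound by RFX, CREB family and NF-Y proteins. NLRC5 is recruited to that module at class I promoters, and CIITA at class II promoters.

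The promoters are printed because the strongest summits of these genes lay within them. A 300-base window, from 250 bases before to 50 after the start, was available from RefSeq (GRCm38.p6, the assembly of mm10) for 6 of the 10 genes. The windows are chr17:34000298-34000597 (minus strand) for H2-K1, chr17:35262844-35263143 (plus strand) for H2-D1, chr2:122147437-122147736 (plus strand) for B2m, chr17:34187306-34187605 (plus strand) for Tap1, chr17:34287774-34288073 (minus strand) for H2-Aa and chr17:34305617-34305916 (plus strand) for H2-Eb1. They read 5′ to 3′ along the gene's strand, and capitals mark matches to the motifs named below on either strand, those on the opposite strand in reverse complement. The start used for H2-K1 (34000347) lies inside the annotated gene, which ends at 34000619.
H2-K1: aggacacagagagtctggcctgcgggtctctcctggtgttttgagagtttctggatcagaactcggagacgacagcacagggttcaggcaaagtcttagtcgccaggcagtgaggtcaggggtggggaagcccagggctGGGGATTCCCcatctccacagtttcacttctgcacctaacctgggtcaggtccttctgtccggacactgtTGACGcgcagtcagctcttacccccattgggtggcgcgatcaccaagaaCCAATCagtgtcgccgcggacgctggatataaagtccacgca
H2-D1: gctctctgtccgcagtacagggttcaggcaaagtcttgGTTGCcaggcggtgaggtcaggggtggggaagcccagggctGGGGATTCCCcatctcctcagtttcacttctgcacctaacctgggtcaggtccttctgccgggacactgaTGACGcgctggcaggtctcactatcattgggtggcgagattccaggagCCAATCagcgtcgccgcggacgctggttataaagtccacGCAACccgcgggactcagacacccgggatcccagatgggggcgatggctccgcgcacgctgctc
B2m: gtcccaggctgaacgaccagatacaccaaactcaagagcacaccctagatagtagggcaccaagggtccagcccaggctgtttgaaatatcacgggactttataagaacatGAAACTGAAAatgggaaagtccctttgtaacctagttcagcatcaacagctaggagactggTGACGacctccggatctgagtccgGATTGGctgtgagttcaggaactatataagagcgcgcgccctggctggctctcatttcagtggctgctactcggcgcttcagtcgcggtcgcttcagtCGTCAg
Tap1: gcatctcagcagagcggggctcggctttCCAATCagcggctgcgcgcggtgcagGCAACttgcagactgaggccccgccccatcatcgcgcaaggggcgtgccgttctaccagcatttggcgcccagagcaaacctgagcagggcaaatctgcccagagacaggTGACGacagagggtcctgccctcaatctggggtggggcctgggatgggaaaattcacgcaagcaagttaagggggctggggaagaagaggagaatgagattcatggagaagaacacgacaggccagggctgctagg
H2-Aa: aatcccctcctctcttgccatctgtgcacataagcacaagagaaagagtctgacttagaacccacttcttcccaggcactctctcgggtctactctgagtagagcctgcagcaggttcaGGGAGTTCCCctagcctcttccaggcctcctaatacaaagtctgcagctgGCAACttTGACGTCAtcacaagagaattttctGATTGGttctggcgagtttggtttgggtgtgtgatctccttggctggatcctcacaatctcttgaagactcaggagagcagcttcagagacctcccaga
H2-Eb1: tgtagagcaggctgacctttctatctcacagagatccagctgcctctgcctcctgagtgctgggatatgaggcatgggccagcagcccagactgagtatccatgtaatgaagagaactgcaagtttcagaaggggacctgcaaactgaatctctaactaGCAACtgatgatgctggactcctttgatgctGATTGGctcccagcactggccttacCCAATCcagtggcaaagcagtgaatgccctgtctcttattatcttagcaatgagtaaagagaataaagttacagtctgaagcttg

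Letters were searched on both strands. GATTGG, the core of the Y box, was present in 6 of 6 windows, against 16.2% of the 32619 windows of the same length on the autosomes and X. TGACG, a core of the X2 box, was present in H2-K1, H2-D1, B2m, Tap1 and H2-Aa, against 20.9% of windows. The windows that held both made up 3.86% of the total. The search counted matches and did not require the order or spacing of the boxes. In H2-K1 the GATTGG match lay 8 to 13 bases after the start used. In Tap1 it lay 217 to 222 bases before the start, upstream of TGACG at 82 to 86. In H2-Aa the TGACG matches of the 2 strands overlap. GCAAC, the core of the X1 box, was found in H2-D1, Tap1, H2-Aa and H2-Eb1, against 35.0% of windows. A kappa B motif of NF-kappa B was found in H2-K1, H2-D1 and H2-Aa, against 1.77%, and the interferon-stimulated response element in B2m, against 3.46%. The gamma activated site TTCNNNGAA and the E box CACGTG had no match in these 6 windows and were present in 8.34% and 7.20% of all windows. The H2-K1 and H2-D1 promoters were near copies, with 206 of 228 aligned bases identical (90.4%) and a longest identical run of 47 bases. H2-Aa and H2-Eb1 aligned over only 44 columns, of which 32 were identical. How reads that fit both H2-K1 and H2-D1 were assigned is not given in the sources used here, so the values of this pair may not be independent.

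By the rank of −log10 p, the regions that held the gene starts were among the strongest in the genome at 4 of the 5 class I genes, and stood lower at Nlrc5 and the class II genes. The H2-K1 start region (chr17:33999497-34000792, 1296 bp) stood at percentiles 99.9 and 99.8 in the control libraries and 99.1 and 99.5 in the KO libraries. For H2-D1 (chr17:35262615-35263837, 1223 bp) the percentiles were 99.5 and 99.6 in controls and 98.8 and 99.3 in KO. The start region of B2m (chr2:122147272-122148189, 918 bp) had percentiles of 99.6 and 99.3 in controls and 99.2 and 99.8 in KO. These are the heavy chains and the light chain of the class I molecule, and no other start region of the 10 genes reached their mean percentiles. The transporter gene Tap1 (chr17:34186948-34187971, 1024 bp) followed at 98.5 and 99.0 in controls and 97.8 and 98.2 in KO, in a region that also holds the start of Psmb9, an immunoproteasome subunit. Nlrc5, which encodes the class I transactivator, stood lower (chr8:94433672-94434715, 1044 bp), at 93.0 and 95.0 in controls and 92.3 and 92.7 in KO.

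Among class II genes, the alpha chain gene H2-Aa (chr17:34287557-34288040, 484 bp) had a start region at percentiles 94.3 and 93.0 in controls and 93.2 and 91.5 in KO. The beta chain gene H2-Eb1 (chr17:34305648-34306071, 424 bp) had 93.3 and 92.6 in controls and 92.7 and 93.4 in KO. H2-Ab1, which encodes the beta chain that pairs with H2-Aa, and Cd74 had the widest spreads of the 9 start regions. The H2-Ab1 region (chr17:34263048-34263738, 691 bp) stood at 87.3 and 90.4 in controls and 93.1 and 89.6 in KO. The invariant chain gene Cd74 had a 331-bp start region at 88.7 and 84.0 in controls and 83.8 and 87.0 in KO, and the region with its highest mean percentile lay 1722 bp inside the gene, at 88.0 and 85.6 in controls and 87.5 and 90.3 in KO. No strand was given for Nlrc5, H2-Ab1, Cd74 and Ciita, and their low-coordinate end was used as the start. Ciita, the class II transactivator, had no region at that end. Its strongest region (chr16:10521144-10521664, 521 bp) lay 41130 bp inside the gene, at 85.0 and 84.5 in controls and 84.2 and 85.4 in KO.

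**Figure D1:**
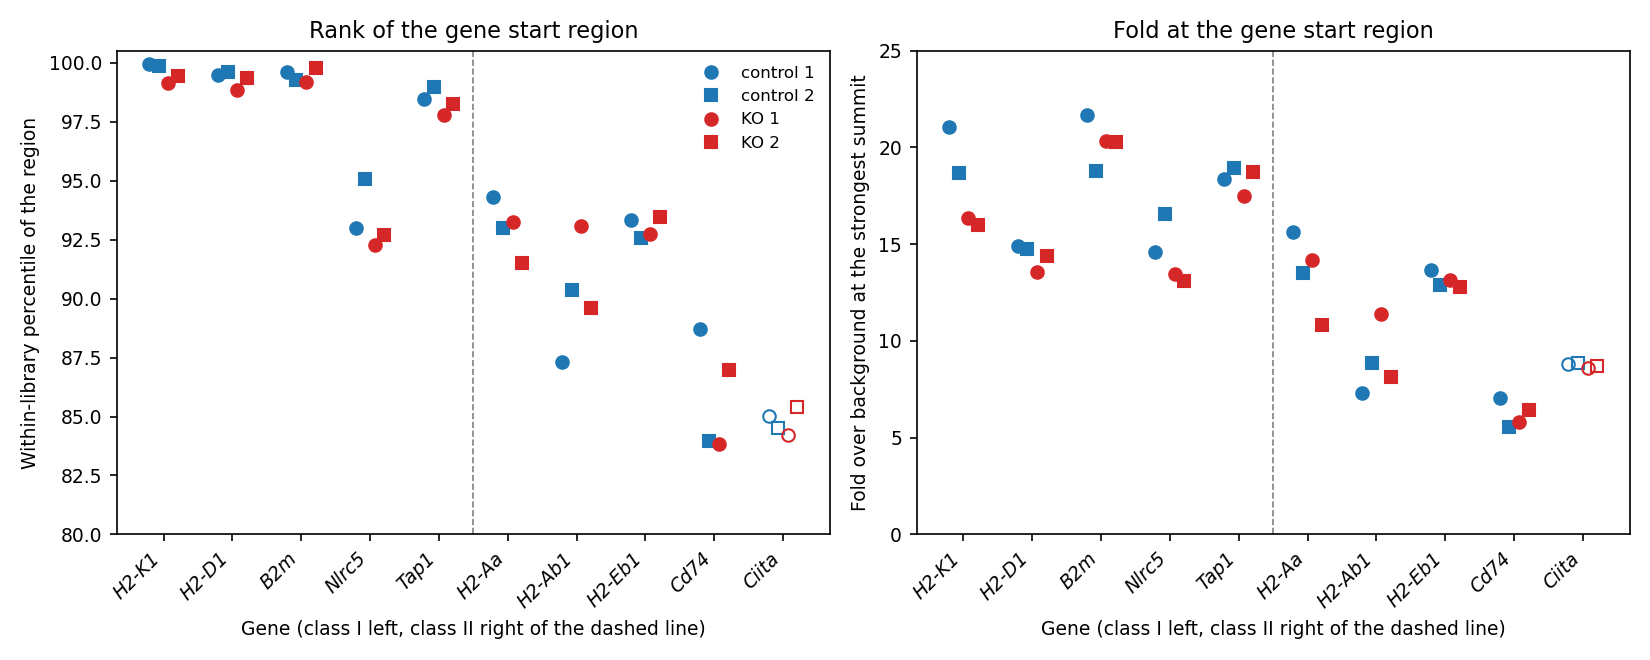
Within-library percentile by −log10 p (left, axis cut at 80) and fold over background (right) of the region at the start of each gene, with 1 point per library (blue control, red KO) and open symbols for Ciita, whose strongest region lies inside the gene. H2-K1, H2-D1, B2m and Tap1 sit at a percentile of 97.8 or above in every library, above the class II start regions, which reach 94.3 at most. By fold, these class I genes overlap the class II genes in control 1 and KO 1.

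In the order of mean percentiles, H2-K1, B2m, H2-D1, Tap1, Nlrc5, H2-Aa, H2-Eb1, H2-Ab1 and Cd74, only Tap1 and Nlrc5 were neighbours whose 4 values did not overlap. Their means differed by 5.11 percentile points. The other 7 neighbouring pairs overlapped between libraries. Of these, H2-D1 stood above Tap1 within each library. The percentiles in control 1, control 2, KO 1 and KO 2 were 99.5, 99.6, 98.8 and 99.3 for H2-D1 and 98.5, 99.0, 97.8 and 98.2 for Tap1. The remaining pairs changed order in at least 1 library and cannot be ordered beyond their spread. H2-K1, H2-D1, B2m and Tap1 stood at 97.8 or above in each library, and the 4 class II start regions at 94.3 or below, with Nlrc5, at 92.3 to 95.0, overlapping the class II values. By the authors' fold the classes overlapped in control 1 and KO 1 and were apart in control 2 and KO 2. The lowest class I fold other than that of Nlrc5 was 14.9, 14.7, 13.6 and 14.4 in control 1, control 2, KO 1 and KO 2, and the highest class II fold was 15.6, 13.5, 14.2 and 12.8. Class I start regions were wider, from 918 to 1296 bp against 331 to 691 bp for class II.

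Set against 21627 protein-coding genes by the mean percentile of each gene's strongest region, H2-K1 ranked above 97.5% of them, B2m above 96.2%, H2-D1 above 94.9% and Tap1 above 86.1%. Nlrc5 ranked above 55.3%, H2-Aa and H2-Eb1 each above 54.5%, H2-Ab1 above 46.7%, Cd74 above 42.8% and Ciita above 38.6%. This measure placed Nlrc5, H2-Aa and H2-Eb1 above the coding median of 91.6 and the other class II genes below it. Only 17843 of these coding genes had a region, and the rest ranked lowest. Among genes with a region alone, all of these shares would be lower. Start regions found in all 4 libraries had median percentiles of 93.7 and 93.5 in controls and 93.8 and 93.7 in KO. The H2-Eb1, H2-Ab1 and Cd74 starts lay below that median in every library. Those of H2-Aa and Nlrc5 each exceeded it in a single control library.

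Between the genotypes, 4 of 9 start regions had both KO percentiles below both control percentiles, those of H2-K1, H2-D1, Tap1 and Nlrc5. None had both above, and 5 overlapped. Over all 11761 regions in all 4 libraries that hold a gene start, 16.3% were lower and 19.5% higher in this sense. The shifts were small, with a KO minus control mean of -0.59 percentile points for H2-K1, -0.44 for H2-D1, -0.72 for Tap1 and -1.53 for Nlrc5. By rank of the fold, 2 of 9 start regions were lower in KO, those of H2-K1 and Nlrc5, and 1 was higher, that of H2-Ab1, against 14.6% and 22.3% of all start regions. The fold at the H2-K1 start was 21.1 and 18.7 in controls and 16.4 and 16.0 in KO, which is 19.9 ± 1.68 against 16.2 ± 0.255 (SD, n = 2 each). For Nlrc5 it was 14.6 and 16.6 in controls and 13.5 and 13.1 in KO. At H2-Ab1 the fold was 7.30 and 8.85 in controls and 11.4 and 8.16 in KO, so the ranges overlapped before ranking.

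B2m gave folds of 21.7 and 18.8 in controls and 20.3 and 20.3 in KO, and Tap1 gave 18.4 and 18.9 in controls and 17.5 and 18.7 in KO. The H2-D1 folds were 14.9 and 14.7 in controls and 13.6 and 14.4 in KO. Across these 3 genes the largest gap between libraries was between the 2 controls of B2m. At Tap1 and H2-D1 the largest gap was between a control library and KO 1, at 18.9 against 17.5 and 14.9 against 13.6. Since 2 libraries stood on each side, exact permutation of the labels (two-sided) cannot give a p below 0.333, and no single gene could pass 0.05.

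The strongest summit lay at nearly the same place in the 4 libraries. It was 35 to 41 bp before the start in the 4 libraries at H2-K1, 106 to 113 bp before it at H2-D1, 79 to 82 bp at B2m and 118 to 124 bp at Tap1. At H2-Aa it lay 112 to 123 bp before the start and at H2-Eb1 44 to 55 bp before it. Placed on the printed sequences, the summit of H2-K1 was within 2 bp of the TGACG match and that of B2m within 4 bp in every library. For H2-D1 the distance was 5 to 12 bp, so the summits of the heavy chain genes were closer in place when measured from this shared motif than from the annotated starts. The Tap1 and H2-Aa summits were farther from TGACG, at 32 to 38 bp and 38 to 49 bp. The H2-Eb1 summit fell within 10 bp of a GATTGG match in every library, while in the other 5 genes the nearest such match was 25 to 99 bp away. A summit near a motif is a description of position, and factor binding was not measured. Relative to the low-coordinate end, the summits of Nlrc5 ranged over 74 bp, from 30 bp before to 44 bp after it, and those of Cd74 over 9 bp.

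**Figure D2:**
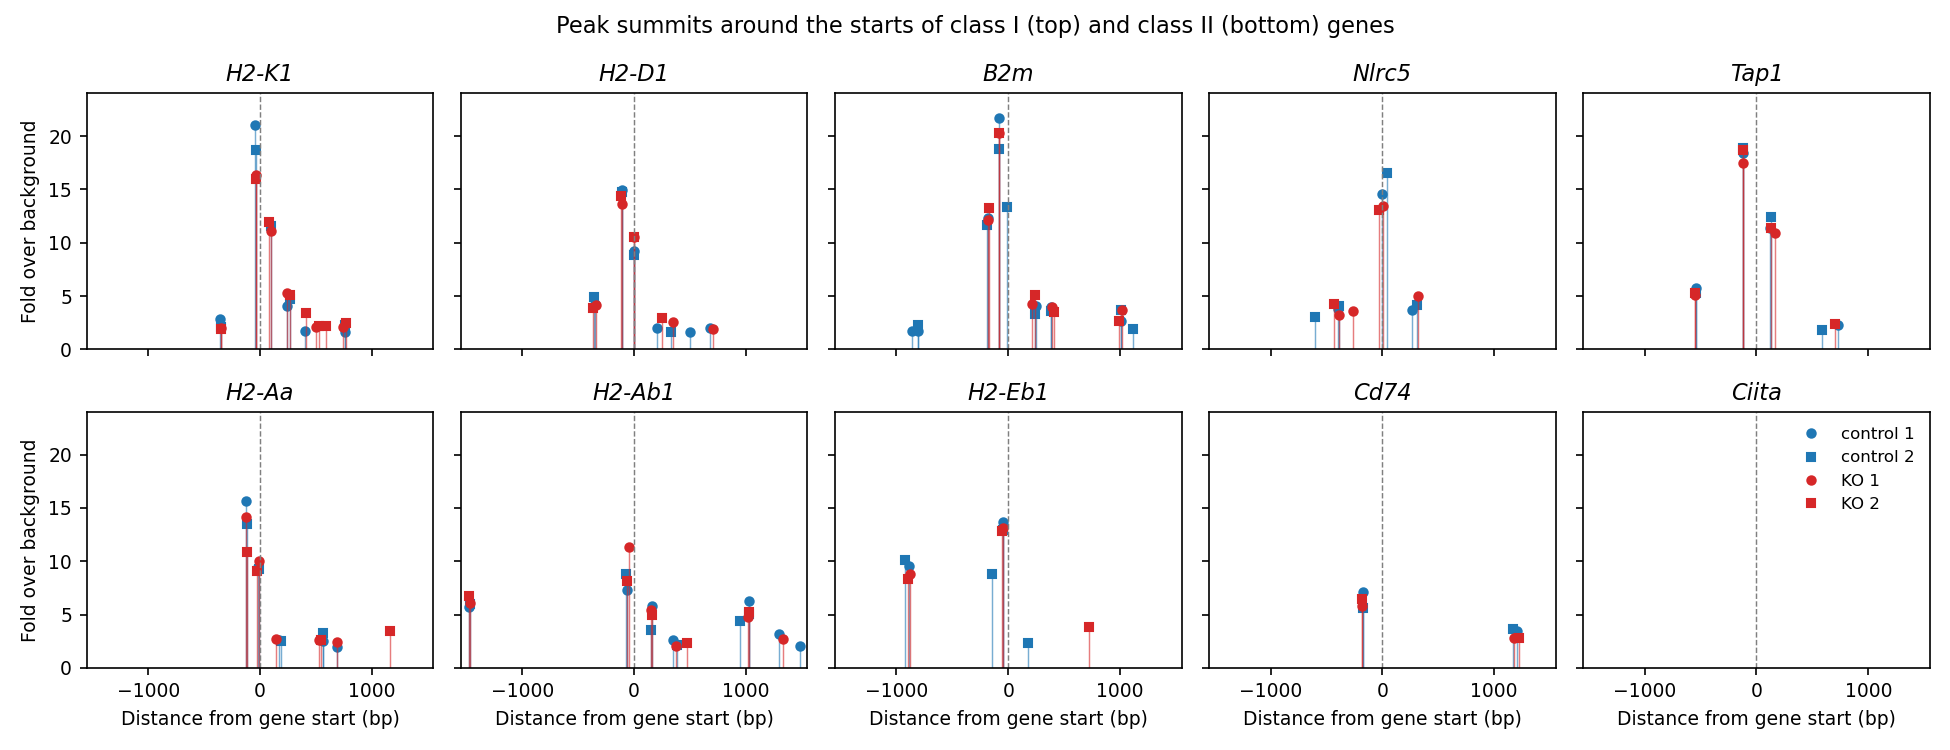
Fold over background of each called summit against its distance from the gene start in bp, with class I genes in the top and class II genes in the bottom panels, blue for control and red for KO libraries. The strongest summits of the 4 libraries coincide to within 3 bp at B2m and 11 bp at H2-Aa and H2-Eb1, and Ciita has no summit in the window drawn.

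The starts were only a part of the accessible sequence. Merging the 4 lists gave 112 regions at the 10 genes in any library, of which 51 were in a single library, 24 of them in a control and 27 in a KO library. Of the 61 regions kept, 42 had a peak in all 4 libraries, 5 in 3 and 14 in 2. Every start region found was in all 4. Class I genes had 19 of 31 regions in all 4 libraries (61.3%) and class II genes 23 of 30 (76.7%), beside 58.4% of all regions. Ciita and Nlrc5, the longest genes, had the most regions, 12 and 11, of which 7 each were in all 4 libraries. Each of the other 8 genes had 4 to 6 regions, against a median of 3 over coding genes. H2-Ab1 and Cd74 had all of theirs, 4 and 5, in every library.

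Presence set few regions apart by genotype. At class I genes 2 of 31 regions were only in KO, with a peak in both KO libraries and no control, and 2 only in control. At class II genes 1 of 30 was only in KO and 1 only in control. Over all regions the shares were 3.47% for KO and 6.05% for control, and 6.45% of class I and 3.33% of class II regions were found in each direction. The regions only in KO lay beyond the 3′ side of H2-K1 (chr17:33994848-33995033), beyond that of H2-D1 (chr17:35269226-35269432) and inside Ciita (chr16:10490307-10490545). Those only in control lay beyond the 3′ side of H2-D1 (chr17:35270507-35270646), before the start of B2m (chr2:122146793-122146928) and before the low-coordinate end of Ciita (chr16:10476030-10476322). All 6 were weak, with folds of 1.71 to 4.22, a −log10 p of 2.16 to 6.50 where every deposited summit had at least 2.0, and widths of 136 to 293 bp against a median of 330 bp over all regions. None reached a −log10 q of 5. Regions with a peak in all 4 libraries could still cross that limit in a single genotype. A region inside H2-Eb1 (chr17:34309726-34310031) passed it only in KO, at 6.47 and 5.16 against 3.88 and 3.92 in controls. A region inside Cd74 (chr18:60804948-60805193) passed it only in controls, at 9.49 and 12.8 against 4.51 and 3.21 in KO. The H2-D1 pair of regions, 1 in each direction, lie on either side of a region (chr17:35269745-35270305) that was in all 4 libraries at percentiles 74.7 and 80.2 in controls and 70.6 and 80.8 in KO.

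Of the 42 regions in all 4 libraries, 12 had both KO percentiles below both controls and 2 had both above, beside 19.3% and 18.9% of all such regions. Class I genes gave 6 lower, none higher and 13 overlapping, and class II genes gave 6 lower, 2 higher and 15 overlapping. Both higher regions were of middling rank. One lay 3859 bp inside H2-Eb1 (chr17:34309726-34310031), at 48.9 and 46.9 in controls and 61.6 and 64.4 in KO, with folds of 2.95 and 2.90 against 3.70 and 3.94. The other lay 47353 bp inside Ciita (chr16:10527367-10527511), at 24.2 and 36.9 in controls and 46.6 and 55.9 in KO. Among the lower regions, 1 upstream of H2-Aa (chr17:34291664-34291882) stood at 88.2 and 82.9 in controls and 80.5 and 75.8 in KO, and 1 inside Cd74, 1099 bp from its low-coordinate end, at 67.1 and 70.2 in controls and 55.1 and 55.8 in KO. A region upstream of H2-D1 (chr17:35259078-35259378) stood at 94.0 and 94.0 in controls and 92.1 and 93.4 in KO. The remaining lower regions were the 4 class I start regions, a second region of Cd74, 2 of H2-Eb1, 1 of Nlrc5 and 1 of Ciita.

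**Figure D3:**
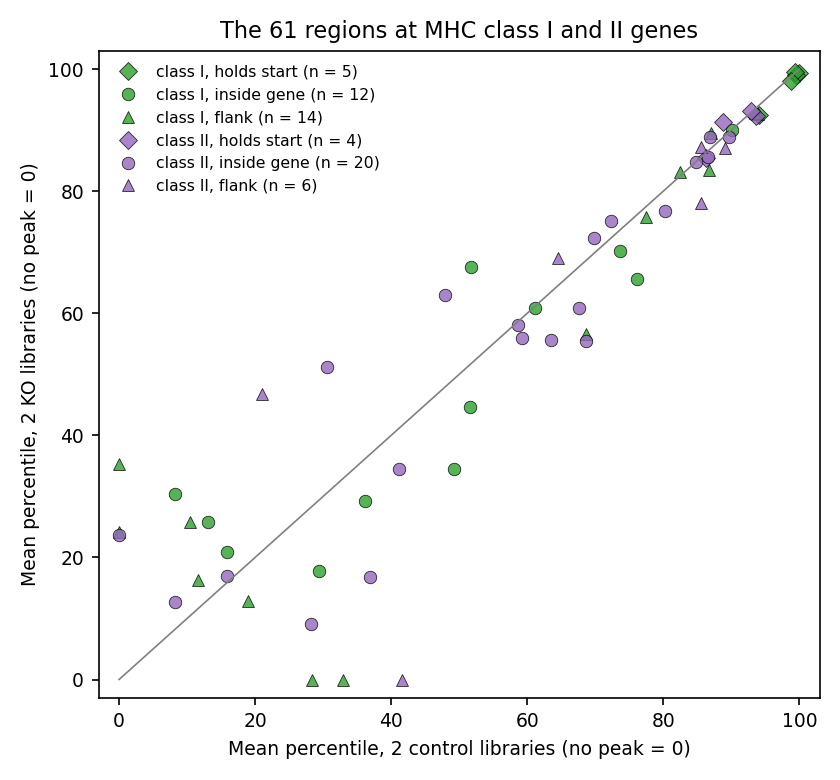
Mean within-library percentile of each of the 61 regions in the 2 control libraries (x axis) and the 2 KO libraries (y axis), with class I in green, class II in purple and the shape giving the place of the region relative to its gene. Points near 100 lie close to the line of equality, and the 6 regions found in 1 genotype only lie on the axes below a mean percentile of 50.

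Averaged over regions, the percentile of class I genes was 55.2 and 57.0 in controls and 56.5 and 55.4 in KO, and the libraries of the genotypes overlapped. The KO minus control difference was -0.190 percentile points (two-sided exact permutation p = 1.0, n = 2 per group), and it was 0.486 without control 1. Class II genes averaged 61.0 and 62.1 in controls and 61.8 and 59.4 in KO, a difference of -0.952 (exact permutation p = 0.667, n = 2 per group). A region without a peak counted as 0 in these means. Of all regions, 113972 and 107662 had a peak in the KO libraries against 118842 and 117085 in the controls. The part of that wider difference in the class means was not tested. The class II difference was -10.4 when a library's peaks had to cover a share of at least 0.5 of a region, where the exact permutation p was 0.333, the smallest possible. With summits below a −log10 q of 5 left out, the differences were -3.42 for class I and -2.60 for class II. In each library the mean over class I regions was lower than that over class II regions, with a class I minus class II difference of -5.73 and -5.04 points in controls and -5.25 and -4.00 in KO, although class I held the higher start regions. Class I had 14 regions in the flanks against 6 for class II, and 7 of those 14 were in all 4 libraries. This order depended on the region set, since class I minus class II was 14.9 points under that −log10 q limit and 3.78 without control 1.

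The covered sequence was shorter in the KO libraries. Peaks covered 11.9 and 12.3 kb of class I regions in controls and 10.3 and 10.4 kb in KO, and 10.1 and 8.60 kb of class II regions in controls and 7.44 and 7.76 kb in KO. The same held outside the MHC genes. The peaks at the 8 HSC marker genes covered 38.7 and 38.4 kb in controls and 28.5 and 30.2 kb in KO, and those at the 12 genes of class I processing and loading 26.7 and 26.2 kb in controls and 22.7 and 22.9 kb in KO. The part of this wider difference between the lists in the MHC values was not tested.

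The other genes of the pathways were read in the same way. All genes of the 5 lists had a region in all 4 libraries. The 7 genes of the RFX, CREB and NF-Y proteins that bind the X and Y boxes were the most accessible list, with a median percentile of the strongest region of 99.0 and 99.2 in controls and 99.0 and 99.0 in KO. The means over libraries ran from 97.9 for Rfxap and 98.4 for Creb1 to 99.4 for Rfx5 and 99.8 for Nfya. Of their 25 regions, none was only in KO and 3 were only in control, 1 at Rfx5 and 2 at Nfyc. Each of the 7 means was above those of the strongest regions of the transactivators Nlrc5 (93.3) and Ciita (84.8).

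The 12 genes of class I peptide processing and loading had medians of 96.7 and 97.5 in controls and 96.4 and 96.3 in KO. The chaperone genes Canx (99.7) and Calr (99.3) had the highest mean percentiles, and Tapbpl (86.3), a tapasin-like peptide editor, and Psmb10 (87.7), an immunoproteasome subunit, the lowest. None of 44 regions was only in KO, and 1, at the proteasome activator gene Psme1, was only in control. Psmb8 and Psmb9 share regions with Tap1. The 8 class Ib genes, which encode heavy chains of restricted polymorphism, had medians of 95.3 and 95.0 in controls and 95.1 and 96.1 in KO. H2-Q6 and H2-Q7 both averaged 99.7, and H2-T23 (91.5) and Cd1d1 (92.3) were lowest. Of their 24 regions, 1 at H2-Q7 was only in KO, and 2, at H2-M3 and H2-Q4, were only in control. Like H2-K1 and H2-D1, the H2-Q genes are close relatives whose reads may be shared.

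Class II loading genes had medians of 92.2 and 92.5 in controls and 92.8 and 92.8 in KO over 8 genes. H2-DMa (99.2), a chain of the peptide exchanger, and Ifi30 (98.7), a lysosomal thiol reductase, were highest, and H2-Oa (78.0), a chain of its inhibitor, and Ctss (87.9), the protease that trims the invariant chain, were lowest. Of 51 regions, 1 at Lgmn was only in KO and none only in control. The 8 genes upstream in the interferon gamma path, an inducer of both classes, had medians of 97.1 and 96.9 in controls and 97.4 and 97.0 in KO. Ifngr1 (99.4) and Irf2 (99.1) were highest, and Ifngr2 (90.9) and Irf8 (94.9) lowest. Of 96 regions, 2, at Jak1 and Irf2, were only in KO, while control alone held 6, among them regions at Ifngr1, Jak1 and Irf2. Over the 5 lists the share of regions only in KO ran from 0 to 4.17%, beside 3.47% of all regions, and that of regions only in control from 0 to 12%, beside 6.05%.

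**Figure D4:**
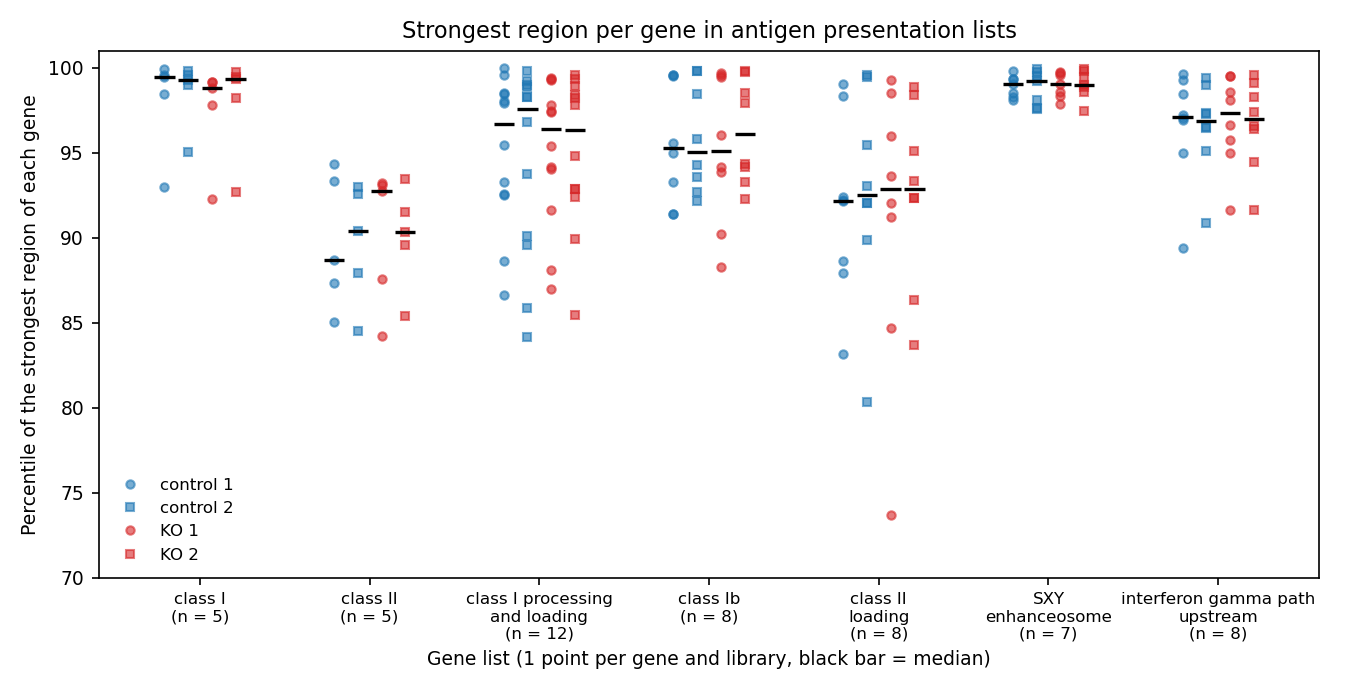
Within-library percentile of the strongest region of each gene (y axis, cut at 70) for the class I and class II genes and the 5 lists of related genes, with 1 point per gene and library and a black bar at the median. The bars of control and KO libraries lie close together within each list, and the genes of the X and Y box factors lie highest, at medians of 99.0 to 99.2.

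H2-K1, H2-D1, Tap1 and the 3 class II chain genes lie in 1.28 Mb of chromosome 17 (chr17:33991012-35272497, flanks included). The segment held 293 regions, of which 66.9% were in all 4 libraries, 7 (2.39%) had peaks in KO alone and 20 (6.83%) in control alone. Of its 196 regions in all 4 libraries, 43 were lower and 26 higher in KO by the percentile, beside 19.3% and 18.9% of all such regions, and the mean percentile over the segment's regions was 57.9 in controls and 54.3 in KO. Of 47 regions there that hold a gene start, 5 were lower and 8 higher, beside 16.3% and 19.5% of all start regions. Leaving out those of the class I and class II member genes, 2 of 41 were lower and 8 higher. These 41 can include other genes of antigen presentation, since genes of the class II loading list also lie in the segment. The lower class I start regions were thus 3 of the 5 in the segment, a description of chosen genes with no test.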

How the data were processed

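ATAC-Seq peaks of 2 control and 2 KO libraries were analysed. According to the submitters' processing notes, the authors used Bowtie2, MACS2 and mm10, with versions and filters not given in the sources used here. Peaks were called per library and not on pooled samples. The deposited lists give each summit's fold (a ratio to local background), −log10 p, −log10 q and a display score, which was not used. In 253 to 492 entries per list the summit was a chromosome position and was read as such. Depth is unknown, so no counting interval could be given.

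Intervals on the autosomes and X were merged at 1 bp overlap, and merged regions found in 1 library alone were dropped (Python 3.11.15, numpy 2.4.6, pandas 2.3.3, scipy 1.17.1, matplotlib 3.10.9). Genes came from RefSeq (GRCm38.p6), with 5000 bp on each side. Presence and rank were counted, and class means were compared by exact permutation over libraries. The study's differential test with DiffBind needs reads. The scripts were tested on simulated data. The genes named are the 10 members and, from each of the 5 lists, those with a region in 1 genotype only and the 2 highest and 2 lowest by percentile. Members, lists and motifs were chosen with earlier results of these data known. The replicate numbers were not taken as pairs. One gene covered by this naming is not reported here.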

Additional observations from a re-analysis of the deposited data

How the results depend on the processing

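Depth limits weak regions most, since presence in a library depends on a threshold and read counts are unknown. With summits under a −log10 q of 5 left out, no class I region was only in KO or only in control (0 and 0, against 2 and 2), 76.5% of class I regions were in all 4 libraries, and class I exceeded class II by 14.9 percentile points in place of -5.00, with KO minus control differences of -3.42 for class I and -2.60 for class II. With the 100000 strongest summits the values were 0, 0, 82.4%, 15.8, -2.82 and -1.58. At class II genes the counts were 1 for KO and 1 for control under either limit, as in the main setting. Under the −log10 q limit these were other regions than before. The Ciita regions counted in the main setting fell below the limit. The regions inside H2-Eb1 and Cd74 described above, which have a peak in all 4 libraries without it, were counted in their place. Which regions were counted with the 100000 strongest summits is not given here. When a library had to cover a share of 0.5 of a region, class I had 1 region only in KO, class II had 0 of that kind and 3 only in control, 50.0% of class II regions were in all 4, class I exceeded class II by 1.52, and the class II KO minus control difference was -10.4 in place of -0.952. With a flank of 1000 bp, class I had 1 region specific to each genotype, class II had 0 only in control, the class II KO minus control difference was 0.555, and class I minus class II -0.849. Keeping regions of any library gave differences of 0.642 for class I and 0.0901 for class II, shares in all 4 of 32.2% and 43.4%, and class I minus class II of -6.25. Ranking by fold gave differences of 0.051 and 0.141 and left 2 start regions lower in KO in place of 4. All alternatives for the count of start regions, those that leave out a library included, were chosen after seeing the data. Leaving out each library gave 0 to 3 class I regions only in KO and 0 to 4 only in control (4 without KO 2), and 0 to 2 class II regions in each direction (2 only in KO without control 2, 2 only in control without KO 2). The counts of 0 arose when a library of the same genotype was left out, because a region had to be held by at least 2 libraries to be kept. The class I difference ran from -1.02 without KO 1 to 0.486 without control 1, and that of class II from -0.499 without KO 1 to -0.109 without control 1. Class I minus class II ran from -1.98 without KO 2 through -1.40 without control 2 and 0.811 without KO 1 to 3.78 without control 1. Shares in all libraries left were 67.9% to 84% and 79.3% to 88.9%, and 4 to 6 start regions were lower in KO, with 6 without control 2 or KO 2. Fewer libraries make presence in all of them easier by construction. With 1 library left in a genotype, absence from it and percentiles on 1 side of it are also easier to meet by construction. For the other changes the cause was not tested. With a replicate block the differences stayed at -0.190 and -0.952 (exact sign-flip p = 1.0 for both). Deviations of control 1 and KO 1 from their group means correlated at r = 0.0067 over 137553 regions. With 2 libraries per group, this value cannot settle whether libraries of equal number shared a preparation.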
